A study of Mus musculus with 18 samples.

Results

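The nuclear-encoded genes of the respiratory chain and ATP synthase were followed in 3 kinds of immune cell taken from MC38 tumours. Members were all protein-coding rows whose mouse symbol starts with Ndufa, Ndufb, Ndufc, Ndufs, Ndufv, Sdh, Uqcr, Cox4, Cox5, Cox6, Cox7, Cox8 or Atp5, with the assembly factor prefixes Ndufaf and Sdhaf left out. The rule found 85 of the 46983 rows of each table, of which 38 belong by symbol to complex I, 4 to complex II, 8 to complex III, 18 to complex IV and 17 to complex V. A prefix is not proof of membership, since Cox7a2l acts in supercomplex assembly and Ndufa4 has been assigned to complex IV. Genes of complex III and the carriers with other symbols, such as Cyc1 and Cycs, are not members.

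The tumours grew from MC38, a mouse colon carcinoma line, under the skin of C57BL/6 females that were 6 weeks old at injection. All mice received 200 µg of an antibody against PD-1, an inhibitory receptor of T cells, 2 times per week for 2 weeks, and 1 arm also received 25 µg of D18 (a code name, with no further identity used here) 1 time per week. Treatment began at an average tumour volume of 100 mm3. CD8+ T cells, T helper cells (the CD4 sort) and dendritic cells (the DC sort) each gave 3 libraries per arm, named below anti-PD-1 and D18, so that there were 6 groups and 18 libraries. Every group carried PD-1 blockade and no untreated tumour was used here. Mice were pooled before being divided into arms, and the labels do not tie a replicate number to a mouse, so each p-value below measures the spread between these libraries, which may be technical.

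Complex I takes electrons from NADH and complex II, which is also the succinate dehydrogenase of the citric acid cycle, takes them from succinate. Both pass them to ubiquinone, from which complex III hands them to cytochrome c and complex IV to oxygen, and the proton gradient built by complexes I, III and IV drives ATP synthesis by complex V. Complex II is the only one made wholly from nuclear genes, while the others join nuclear subunits to a few subunits encoded by mitochondrial DNA. In T cells this machinery is known to be used heavily by resting and memory cells and to be limiting for cells under chronic stimulation in tumours.

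Many of the subunits are very small proteins with short messages, and the length of the message turned out to track much of the variation described here. A pair of examples is printed because their reads nearly vanished from one set of libraries. Atp5e encodes the epsilon subunit of the ATP synthase and lies at chr2:174461072-174464105 on the minus strand of mm10, with a coding sequence of 159 bases in a transcript of 421. Cox7c encodes a small subunit of complex IV and lies at chr13:86044816-86046904 on the minus strand, with 192 coding bases in a transcript of 540. Both are spliced coding sequences built from the GENCODE M21 annotation, written 5′ to 3′ with the start and stop codons in capitals.
Atp5e: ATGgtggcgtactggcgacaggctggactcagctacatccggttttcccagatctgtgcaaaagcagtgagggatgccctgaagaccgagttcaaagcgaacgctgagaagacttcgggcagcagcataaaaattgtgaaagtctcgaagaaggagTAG
Cox7c: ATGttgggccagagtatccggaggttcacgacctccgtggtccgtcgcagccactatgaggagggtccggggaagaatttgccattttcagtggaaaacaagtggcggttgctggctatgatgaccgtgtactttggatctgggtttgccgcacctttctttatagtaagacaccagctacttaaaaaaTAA

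The libraries were shallow. Reads assigned to genes ranged from 11170 to 266392 per library, and 9560 to 251927 of them fell on genes outside the mitochondrial chromosome (nuclear reads). Levels are given in RPM, the reads of a gene per 1000000 nuclear reads of its library. Reads of mitochondrial DNA genes took 2.39% to 71.9% of a library. Where no read was seen, as many as 3 cannot be told from none, a floor of 11.9 RPM in the deepest library and 314 RPM in the shallowest, D18 replicate 2 of the DC sort, and these floors cover counting error only because Smart-Seq2 reads carry no molecular identifiers. Several libraries went against their labels. Cd3e, a T cell receptor subunit, had 0 and 1 reads in the CD4-sort libraries labelled anti-PD-1 replicates 1 and 2, where a list of monocyte and macrophage genes took 79942 and 86712 RPM. Libraries numbered 3 held T cell and myeloid genes together in every sort, with 3204 (anti-PD-1) and 6166 (D18) RPM of T cell genes in the DC sort. Such a mixture was not confined to them. In CD8-sort anti-PD-1 replicates 1 and 2, T cell genes took 8696 and 10482 RPM and the monocyte and macrophage list 35798 and 29429. Flt3, a receptor that defines conventional dendritic cells, had 0 reads in all 3 DC-sort anti-PD-1 libraries and 13, 1 and 3 reads in the D18 ones. A wider list of dendritic cell genes took 861, 1087 and 745 RPM in those anti-PD-1 libraries, and 297 to 1949 over all libraries. Flt3 had too few reads for the label of this sort to be judged by it.

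In all, 25486 reads fell on members, from 71 in D18 replicate 2 of the DC sort to 3181 in D18 replicate 2 of the CD8 sort. Members together took 7427 to 26131 RPM, with a median of 15570. Of the 85 genes, 82 had a read somewhere, 19 had reads in all 18 libraries, and Cox7b2, Cox8b and Cox8c had none. Members with a mean of at least 10 normalised reads in a sort were tested, and these were 62 in the CD8 sort, 28 in the CD4 sort and 37 in the DC sort. Of these, 25 were tested in all 3 sorts, and 23 of the 85 genes in none. Pseudogenes with the same prefixes held 15 reads in 11 rows, although reads of members and their processed copies cannot always be told apart.

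Per kilobase of transcript, complex IV genes stood at the top. Over the 18 libraries the median level was 1048 RPM per kilobase for Cox8a, 886 for Cox4i1, 783 for Cox6a1 and 760 for Cox6b1, all ubiquitous forms of complex IV subunits. These 4 genes took the first 4 places in each sort. Their order was not fixed, since Cox4i1 ran from 571 to 1705 in the CD8 sort, where Cox8a ran from 213 to 2416. Atp5e followed with a median of 679 and Cox6c, another subunit of complex IV, with 652, ahead of Atp5b, the catalytic beta subunit of the ATP synthase, with 536. The highest member of complex III was Uqcrq at 489 and that of complex I was Ndufa2 at 451. Complex II was lower, with Sdhb, its iron-sulfur subunit, at 266 and ranked 24 of 85, the membrane anchor Sdhd at 98.5, the flavoprotein Sdha at 60.7 and the other anchor Sdhc at 32.7. Ndufs1, the largest subunit of complex I, had 46 reads in all.

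Where a subunit has tissue-specific forms, nearly all reads came from the ubiquitous one. Cox4i1 had 1155 reads against 7 for Cox4i2, a form linked to low oxygen, and Cox6b1 had 696 against 2 for Cox6b2, a form of testis. Cox8a had 847 reads and its relatives none. Cox7a2 had 344 reads and the related Cox7a2l 527, while the muscle form Cox7a1 had 2. Ndufa4 had 144 reads and Ndufa4l2, a gene induced by low oxygen, had 2. Cox6a2, the heart and muscle form, had 29 reads beside 682 of Cox6a1, and 16 of the 29 lay in 1 library, the one labelled CD4-sort anti-PD-1 replicate 1. The 3 genes for the c subunit of the ATP synthase ring, which encode the same mature protein, were all read, with 282 reads for Atp5g1, 139 for Atp5g2 and 274 for Atp5g3.

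**Figure D1:**
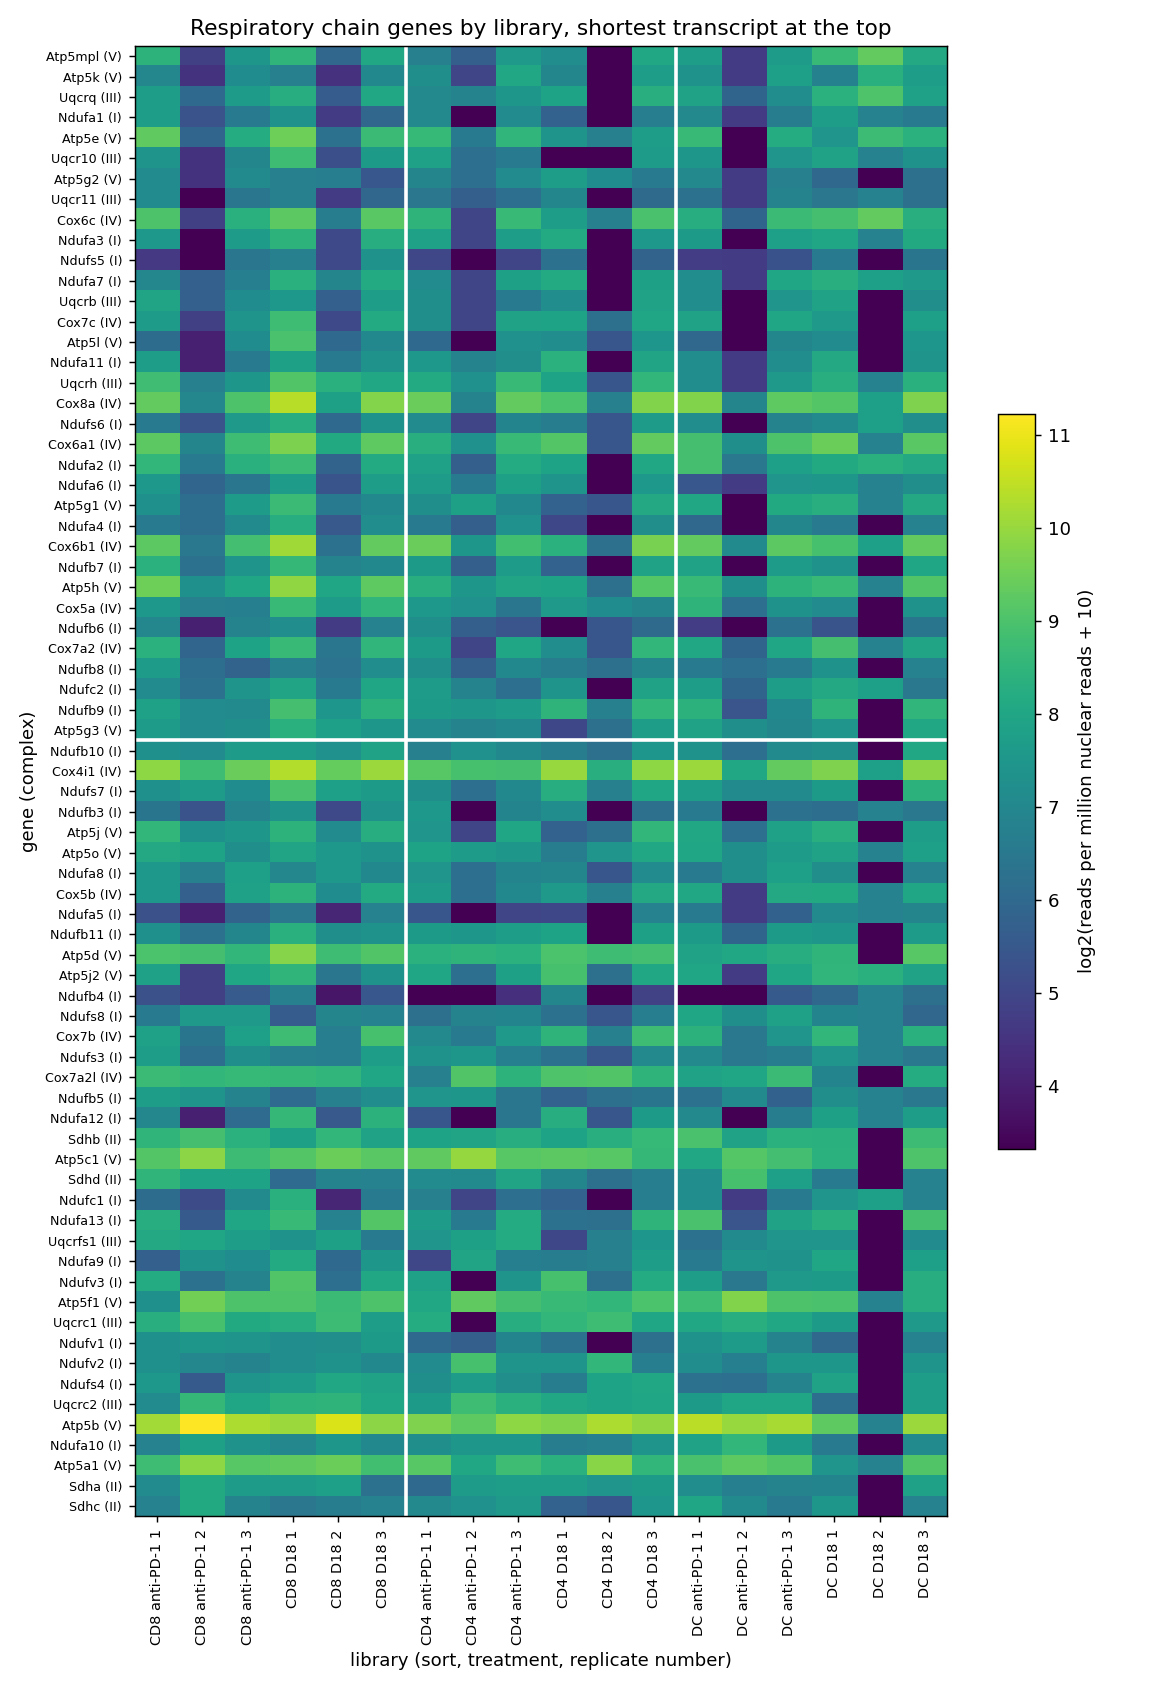
Level of 72 of the 73 members with at least 30 reads in the 12 libraries numbered 1 or 3 (rows, shortest principal transcript at the top, complex in brackets) in each of the 18 libraries (columns, D18 meaning anti-PD-1 plus D18), as log2(RPM + 10). The horizontal white line divides transcripts below and from 732 nucleotides, and the columns numbered 2 are dark above it except in the DC-sort D18 library.

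The variation that stood out most followed the replicate number, not the treatment or the sort. Split at the median principal transcript length of 732 nucleotides, 42 members were short and 43 long. Reads of short over long members gave a ratio of 0.157 to 0.321 (median 0.169) in 5 of the 6 libraries numbered 2, and of 0.646 to 1.09 (median 0.848) in the 12 libraries numbered 1 or 3, so that the sets did not overlap. The sixth library numbered 2, D18 replicate 2 of the DC sort, had a ratio of 2.23 from 49 reads of short and 22 of long members, and was set apart after its values were seen. Short members took 1222 to 3068 RPM in the 5 libraries against 6035 to 13623 in the 12. Long members overlapped, at 7479 to 11191 against 7902 to 12509 RPM. The same split was present in other protein-coding genes, whose transcripts shorter than 732 nucleotides took 1.48% to 3.41% of the coding reads in the 5 libraries, 6.15% to 13.4% in the 12 and 15.5% in the remaining one. The comparison was noticed in these data, so it is a description.

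Single genes showed it plainly. Cox8a, a small subunit of complex IV, was at 117 and 214 RPM in anti-PD-1 and D18 replicates 2 of the CD8 sort, at 107 and 99.1 in those of the CD4 sort and at 112 in anti-PD-1 replicate 2 of the DC sort. In the 12 libraries numbered 1 or 3 it was between 501 and 1329 RPM, well above all of these. Atp5e was at 49.3, 67.5, 85.7, 99.1 and 0 in the same 5 libraries and Cox7c at 18.5, 23.8, 21.4, 66.1 and 0. These were 8, 17, 4, 3 and 0 reads of Atp5e and 3, 6, 1, 2 and 0 of Cox7c, too few to order the 5 libraries. Atp5b, a long gene, was at 2386 and 1754 RPM in the CD8-sort libraries numbered 2 and between 924 and 1211 in the other 4 of that sort, while in the other sorts its values overlapped.

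Of the 73 members with at least 30 reads in the 12 libraries, all 34 short ones had a lower mean in the 5 libraries numbered 2, while 23 of the 39 long ones were lower and 16 higher. The ratio of the means ran from 0.0391 for Ndufa3, an accessory subunit of complex I, to 1.70 for Ndufv2, a core subunit that carries an iron-sulfur cluster. Its rank correlation with transcript length over the 73 genes was 0.70, across genes that share the same libraries. Length did not sort every gene: Ndufa12, with a transcript of 1110 nucleotides, had a ratio of 0.0858, and Ndufv3, with 1582, one of 0.210.

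**Figure D2:**
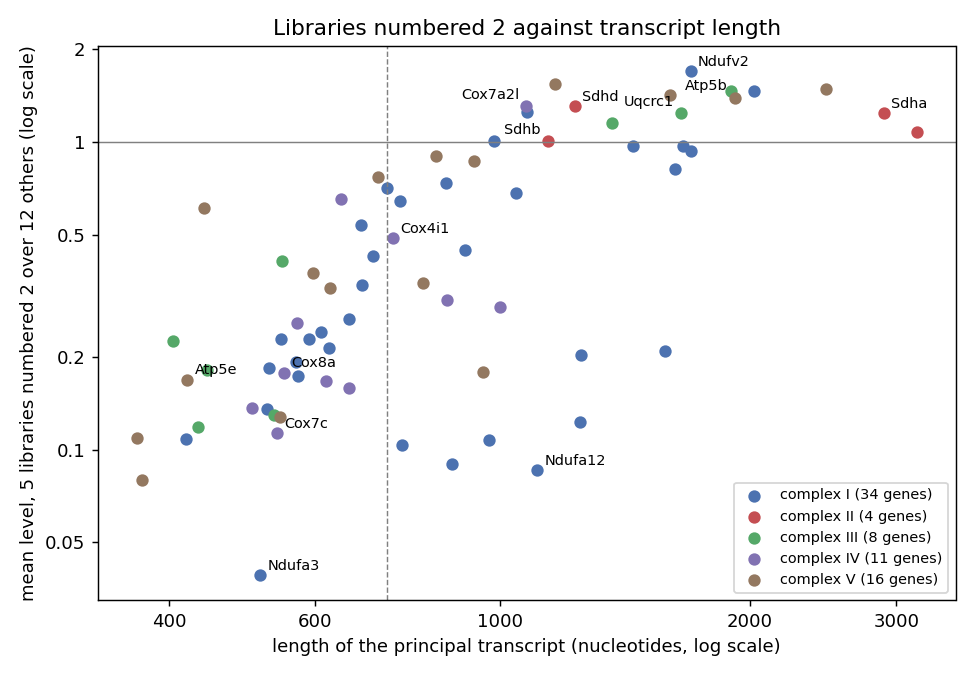
Ratio of the mean level in 5 libraries numbered 2 to that in the 12 libraries numbered 1 or 3 (vertical, log scale), against principal transcript length in nucleotides (horizontal, log scale), for 73 members coloured by complex. All 34 genes left of the dashed median length of 732 lie below the line at 1, and the 4 complex II genes lie above it.

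The complexes, which differ in how many of their genes are short, shifted unequally. Complex IV, with 14 short genes of 18, took 1135 to 2167 RPM in the 5 libraries and 3544 to 7466 in the 12. Complex I, with 15 short genes of 38, took 1883 to 3088 against 4514 to 7857. Of its 34 genes with enough reads for a ratio, 30 were lower in the 5 libraries. For complex III, with 5 short genes of 8, the ranges were 751 to 1421 and 1257 to 2306, which overlap. The shift thus did not follow the share of short genes alone. Complex II, which has no short gene, overlapped in part at 562 to 1239 against 496 to 999, and its 4 genes had ratios from 1.01 for Sdhb to 1.31 for Sdhd. Complex V holds both kinds, with 8 short genes of 17. The ratios were 1.40, 1.49 and 1.54 for its beta, alpha and gamma subunit genes Atp5b, Atp5a1 and Atp5c1 and 0.0795 for the small subunit gene Atp5k. The share of complex V in all member reads was 36.9% to 48.3% in the 5 libraries and 26.4% to 32.4% in the 12, without overlap. That of complex IV was 10.8% to 17.6% against 22.8% to 29.5%.

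**Figure D3:**
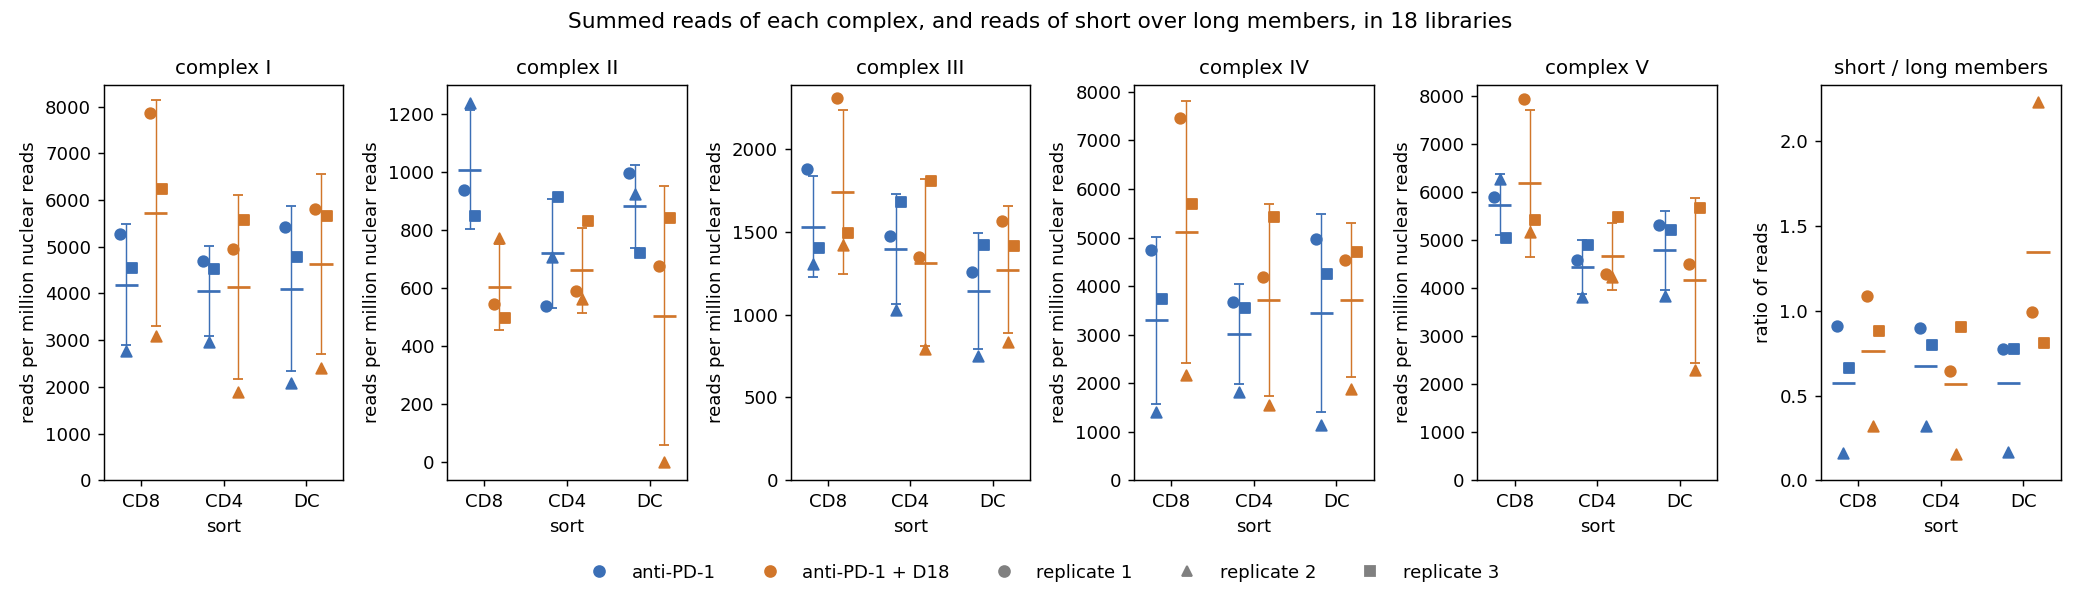
Summed RPM of each complex (first 5 panels), with the mean and SD of 3 libraries per group, and the ratio of reads of short to long members (last panel, mean only), by sort; colours give the treatment and symbols the replicate number. Triangles (replicate 2) are lowest for complexes I and IV in every group except that the DC-sort D18 library is high in ratio, and D18 libraries of the CD8 sort are all lower for complex II.

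The first question of the design was what D18 added to PD-1 blockade. No member passed limma's adjusted p of 0.05 in any sort, and neither did any other gene (0% of 1569 genes in the CD8 sort, of 966 in the CD4 sort and of 886 in the DC sort). Limma-voom with quality weights called no gene either. These fits did not pair libraries by number. A fit with a term for the replicate number (replicate block) is given for the CD8 sort below. At an unadjusted p below 0.05, 2 of the 62 members stood out in the CD8 sort, 1 higher and 1 lower, where 8.29% of all genes did (3.19% higher and 5.10% lower). In the CD4 sort 0 of 28 did, beside 10.4% of all genes (3.73% higher and 6.63% lower), and in the DC sort 0 of 37, beside 6.88% (2.14% higher and 4.74% lower). In bulk RNA, fewer cells of a type and less RNA per cell cannot be told apart. The design also ties treatment to another property of the libraries: mt-Co2, mt-Co3 and mt-Atp6, subunits encoded by mitochondrial DNA, were unread in the anti-PD-1 libraries numbered 1 and 2 of every sort and present in the other 12, and each sort's median is also given from a fit with that split as a term.

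In the CD8 sort complex II was the complex with lower values under D18. Its reads came to 939, 1239 and 849 RPM in anti-PD-1 replicates 1, 2 and 3. In the D18 replicates they came to 547, 774 and 496, or 1009 ± 205 against 606 ± 148 (SD, n = 3). All 3 D18 libraries lay below all 3 anti-PD-1 libraries. Its 4 genes all had negative log2 changes on the log2(normalised reads + 1) scale, with a median of −0.58, beside −0.03 over all 1569 genes tested, of which 48.3% were positive.

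Sdhd (chr9:50596357-50603812, minus strand), which anchors complex II in the inner membrane, had the smallest p of all members. The anti-PD-1 libraries held it at 352, 228 and 229 RPM (24, 37 and 24 reads), the D18 libraries at 58.6, 107 and 103 (3, 27 and 6 reads). The groups did not overlap. Its log2 change was −1.51 ± 0.43 (SE) (limma adjusted p = 0.534). Sdhb was at 352, 469 and 324 against 215, 365 and 223 RPM, which overlap on this scale, although on the scale of the test, which divides by size factors, they did not. Its log2 change was −0.53 ± 0.37 (limma adjusted p = 0.682). Sdha was at 132, 271 and 191 against 195, 210 and 68.5, with overlapping groups and a log2 change of −0.40 ± 0.51, and Sdhc changed by −0.63 ± 0.52.

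Complex IV leaned the other way, with 10 of its 11 tested genes positive and a median log2 change of 0.69. Cox5a (chr9:57521274-57532426, plus strand), a nuclear subunit of its core assembly, lay at 176, 98.7 and 95.4 RPM in the anti-PD-1 libraries and at 391, 195 and 359 in the D18 libraries, so that each D18 library lay above each anti-PD-1 library. Its log2 change was 1.26 ± 0.46 (limma adjusted p = 0.564). Cox4i1 was at 939, 425 and 677 against 1270.4, 643 and 1044 RPM, with overlapping groups and a log2 change of 0.53 ± 0.50. Summed over complex IV, the levels were 4752, 1400 and 3738 against 7466, 2167 and 5700, higher with D18 within each replicate number and overlapping as groups.

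Complex I had a median change of 0.41 with 19 of 26 genes positive. Ndufa7, an accessory subunit, was at 117, 43.2 and 95.4 RPM against 313, 111 and 274, with 1 D18 library inside the anti-PD-1 range and a log2 change of 1.30 ± 0.59 (limma adjusted p = 0.612). Ndufb9, also an accessory subunit, was at 220, 129 and 124 against 469, 167 and 325, with a log2 change of 0.89 ± 0.49 (limma adjusted p = 0.671). Ndufa2 changed by −0.26 ± 0.88. Complexes III and V had medians of 0.16 and 0.37, and their leading genes Uqcrc1, a core protein of complex III, and Atp5b changed by −0.21 ± 0.40 and −0.32 ± 0.46.

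Across the 62 members tested in the CD8 sort the median was 0.38, with 45 positive. On the scale of the test the groups did not overlap for 7 of them, beside 14.5% of all genes: Cox5a, Ndufs4 and Ndufs7 were higher with D18 (6.88% of all genes), and 4 were lower (7.65%), Sdhd, Sdhb and Uqcrfs1 among them. Ndufs4 and Ndufs7 are subunits of complex I and Uqcrfs1 is the Rieske protein of complex III, and these 3 were named after their values were seen. Length moved with the change here too, with a rank correlation of −0.50 over the 62 genes, a median of 0.68 in 27 short genes (26 positive) and of 0.01 in 35 long ones (19 positive). Without both libraries numbered 2 the correlation was −0.27 over 67 genes. Among other coding genes, with all libraries, 76 of 94 short ones were positive (median 0.54) and 603 of 1364 long ones (median −0.10). Their rank correlation was −0.06. The fit with the mt-Co2 split as a term sets the D18 libraries against anti-PD-1 replicate 3 alone. It gave a median of −0.059 over the members, with 27 of 62 positive, and of −0.038 and −0.030 over complexes I and IV. In that fit Sdhd changed by −1.40 and Cox5a by 1.46. Leaving out anti-PD-1 replicate 2 gave a median of −0.0045 and leaving out D18 replicate 1 one of 0.03. Same-numbered libraries of this sort deviated together, and with the replicate block 20 of 1569 genes passed but no member did. At an unadjusted p below 0.05 that fit held 9 of the 62 members, beside 316 of the 1569 genes. The smallest limma adjusted p of a member was 0.136, that of Sdhd. The monocyte and macrophage list summed to 35798, 29429 and 56112 RPM in the anti-PD-1 libraries of this sort and to 2424, 5565 and 33739 in the D18 libraries, and their part in these changes was not tested.

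**Figure D4:**
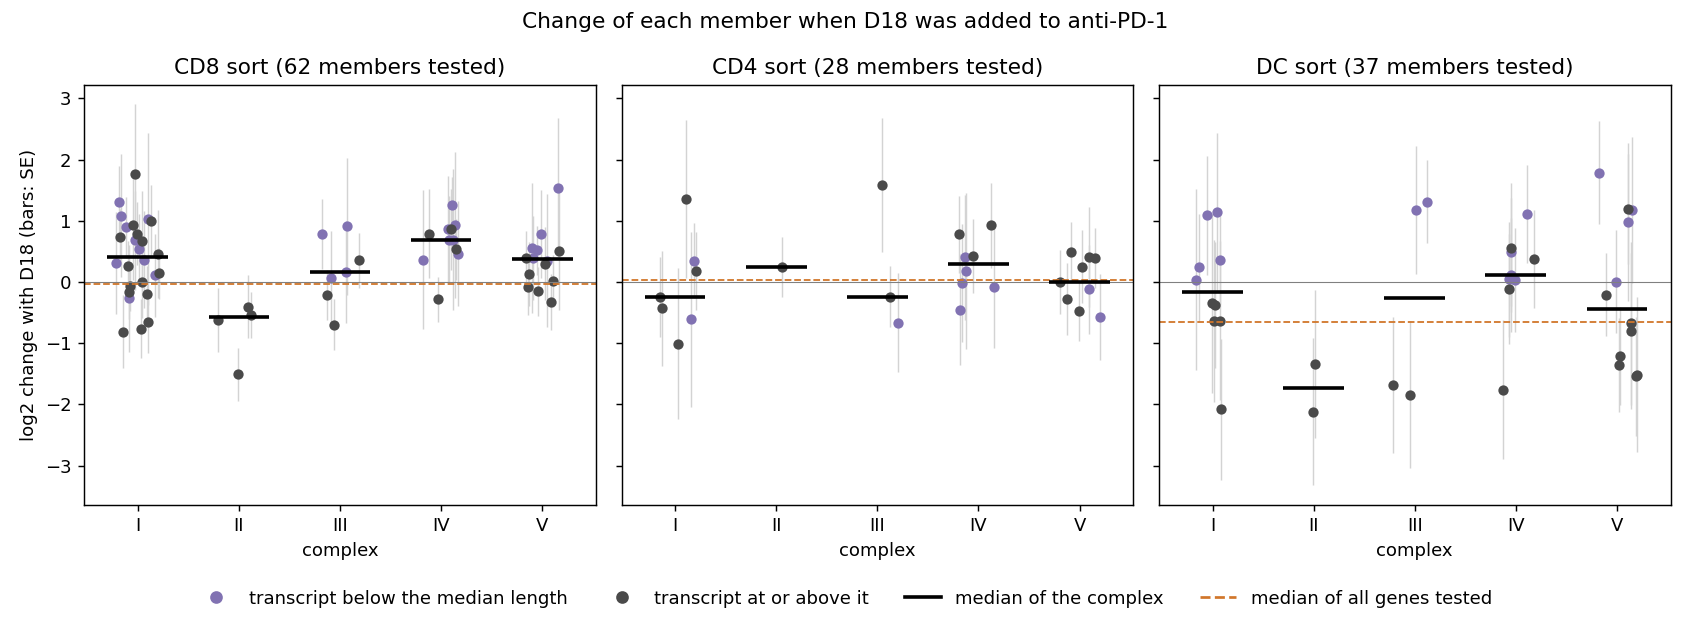
Log2 change of every tested member with D18 (points, bars give the SE), by complex and sort, with genes below the median transcript length in violet, longer ones in grey, a black line at the median of each complex and a dashed line at the median of all genes tested. In the CD8 sort the 4 complex II genes lie below 0, and in the DC sort all 16 short genes lie above 0 and 18 of 21 long genes below it.

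In the CD4 sort the 28 members tested had a median change of 0.09, with 15 positive, beside 0.03 and 51.6% over all genes. T cell genes took 44, 407 and 7627.5 RPM in the anti-PD-1 libraries of this sort and 9110, 6806 and 5140 in the D18 libraries. The monocyte and macrophage list took 79942, 86712 and 27590 against 11250.5, 29504 and 34173 RPM. The part of these cells in the changes was not tested. Uqcrc1 had the smallest p and lay at 286, 0 and 291 RPM (anti-PD-1) and at 364, 430 and 243 (D18). The groups overlapped, since the 243 lies below both 286 and 291. Its log2 change was 1.58 ± 1.09 (limma adjusted p = 0.610), and 0.17 ± 0.54 without the library labelled anti-PD-1 replicate 2, which held the 0. Cox7b, a complex IV subunit, was at 121, 85.7 and 183 against 342, 99.1 and 430 and changed by 0.93 ± 0.70 (limma adjusted p = 0.629). Cox7a2l changed by 0.78 ± 0.63 and Ndufv3, an accessory subunit of complex I, by 1.35 ± 1.29.

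For the leading genes of the other complexes in the CD4 sort the change was smaller than its SE. Sdhb was at 231, 236 and 291 against 228, 297 and 383 RPM and changed by 0.25 ± 0.49, and it was the 1 complex II gene that could be tested. Cox4i1 changed by 0.42 ± 0.61, Atp5b by 0.40 ± 0.49 and Ndufa2 by −0.61 ± 1.43. Complex II as a whole took 539, 707 and 916 against 592, 562 and 832 RPM, with overlapping groups. Atp5d, the delta subunit of the ATP synthase, was the 1 member whose groups did not overlap on the scale of the test, where 14.5% of all genes did so (5.28% higher with D18 and 9.21% lower), and was named after its values were seen. Its levels were 319, 343 and 323 against 501, 430 and 458 RPM, with a log2 change of 0.50 ± 0.49. The median of the members was 0.17 without the library labelled anti-PD-1 replicate 1, −0.25 without replicate 2 and 0.68 without D18 replicate 2, and no member passed in any of them. It was −0.063 with quantile normalisation. With the mt-Co2 split as a term, which leaves anti-PD-1 replicate 3 alone as the comparison, it was −0.15, with 12 of 28 positive.

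In the DC sort 37 members were tested and their median change was 0.00, with 19 positive, beside −0.65 over all 886 genes, of which 30.9% were positive. Both medians depended on D18 replicate 2, where 45 of the 85 members, including all 4 of complex II, had 0 reads: without it they were 0.75 (33 of 43 members positive) and 0.03. Other omissions moved the median of the members the other way, to −0.62 (6 of 39 positive) without anti-PD-1 replicate 2, −0.51 without D18 replicate 1 and −0.40 without D18 replicate 3. With the mt-Co2 split as a term, which leaves anti-PD-1 replicate 3 alone as the comparison, it was −0.48, with 7 of 37 positive. Without both libraries numbered 2 the median of the members was 0.22, with 33 of 48 positive.

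Atp5mpl (chr12:111961375-111966977, minus strand), which encodes a small accessory protein of the ATP synthase, had the smallest p. The anti-PD-1 libraries held it at 207, 16 and 196 RPM and the D18 libraries at 388, 628 and 264, so that the groups did not overlap, although the 628 came from 6 reads. Its log2 change was 1.78 ± 0.84 (limma adjusted p = 0.551). Uqcrq, a small subunit of complex III, was at 224, 47.9 and 135 against 318, 523 and 220 and changed by 1.31 ± 0.68. Ndufa10 and Sdhd went the other way, by −2.08 ± 1.15 and −2.12 ± 1.20, with 0 reads of each in D18 replicate 2. Sdhd lay at 138, 479 and 211 RPM in the anti-PD-1 libraries and at 85.4 and 103 in D18 replicates 1 and 3, and without D18 replicate 2 its change was −1.16 ± 0.60 (limma adjusted p = 0.475).

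The leading genes of the DC sort had wide errors. Sdhb changed by −1.34 ± 1.21, Uqcrc1 by −1.69 ± 1.11, Atp5b by −1.54 ± 0.97, Cox4i1 by −0.11 ± 0.90 and Ndufa2 by 0.36 ± 0.72. Without D18 replicate 2, Sdhb changed by 0.22 ± 0.45 and Cox4i1 by 0.72 ± 0.59, the opposite sign. On the scale of the test, groups did not overlap for 6 of the 37 members, beside 24.0% of all genes, with Atp5mpl and Uqcrq higher (4.18% of all genes) and Ndufa10, Sdhd, Atp5b and Uqcrc1 lower (19.9%). In RPM the groups of Uqcrq and of Atp5b did overlap. Change and length were tied most closely in this sort, with a rank correlation of −0.83 over 37 genes. All 16 short genes were positive (median 0.74) and 18 of 21 long ones negative (median −0.80). Without both libraries numbered 2 the correlation was −0.25 over 48 genes, with medians of 0.28 and 0.19. Other coding genes split likewise with all libraries: 58 of 78 short ones were positive (median 0.64) and 170 of 737 long ones (median −0.84). Their rank correlation was −0.18.

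Whether D18 acted differently in the sorts was tested as a limma interaction in 1 fit of all 18 libraries. No member and no gene passed (0% in each pair of sorts). At an unadjusted p below 0.05 there were 0 of 43 members for the CD8 sort against the CD4 sort, 2 of 44 for the CD8 against the DC sort and 2 of 41 for the CD4 against the DC sort, beside 1.07%, 1.41% and 4.26% of all genes. All 4 differences were positive, as were those of 1.22% and 3.24% of all genes at such a p. Any positive sign was seen in 32 of 43, 30 of 44 and 20 of 41 members, beside 45.7%, 60.5% and 59.1% of all genes. For the CD8 against the DC sort the 2 members were Uqcrc2, a core protein of complex III, and Cox5a. Their differences in log2 change were 2.29 ± 1.03 and 2.49 ± 1.16. For the CD4 against the DC sort they were Uqcrc1 and Cox7a2l, with 3.45 ± 1.48 and 2.59 ± 1.17. All were picked here by their unadjusted p in this fit, after their values were seen. Each difference included the DC sort. Without D18 replicate 2 of that sort, 0 of 48 and 1 of 45 members had such a p. Over all genes 5 of 1083 and 25 of 1104 did. In those fits 16 of the 48 and 13 of the 45 members were positive. The median differences of the members were −0.25 and −0.59, beside −0.22 and −0.11 over all genes. For Sdhd the change in the CD8 sort minus that in the CD4 sort was −0.69 ± 1.03 (limma adjusted p = 0.998), so a difference between these sorts was not detectable.

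The other question was whether the sorts differ in their level of the chain. The members together took 12627 to 26131 RPM (median 17162) in the 6 libraries of the CD8 sort, 9020 to 19101 (median 15175) in those of the CD4 sort and 7427 to 18302 (median 16748) in those of the DC sort, and these ranges overlap. No member and no gene passed limma's adjusted p of 0.05 in any pair of sorts (0% of 1062, 1079 and 1120 genes). At an unadjusted p below 0.05, 2 of 44 members were higher in the CD8 than in the DC sort, beside 12% of all genes (20% in either direction). Likewise 2 of 41 were higher in the CD4 than in the DC sort, beside 5% of all genes (2.32% lower and 7.32% in either direction), and 0 of 43 differed between the CD8 and CD4 sorts, beside 4.64% (2.23% higher and 2.41% lower). Limma-voom called 2 genes between the CD8 and CD4 sorts, neither a member, and none in the other pairs.

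Uqcrc2 was in both pairs. In the CD8 sort its levels were 132, 376 and 248 RPM (anti-PD-1) and 332, 345 and 240 (D18). In the CD4 sort they were 187, 429 and 312 (anti-PD-1) and 251, 231 and 243 (D18), and in the DC sort 189, 240 and 248 (anti-PD-1) and 62.1, 0 and 205 (D18). The DC-sort values overlapped those of both T cell sorts. Its log2 difference from the DC sort was 1.18 ± 0.52 for the CD8 sort (limma adjusted p = 0.230) and 1.21 ± 0.52 for the CD4 sort (limma adjusted p = 0.642). The others were Atp5d at 1.38 ± 0.65 (CD8 minus DC) and Cox7a2l at 1.24 ± 0.58 (CD4 minus DC), each with 0 reads in D18 replicate 2 of the DC sort. These 3 genes were named after their values were seen.

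By complex, the median log2 difference of the CD8 from the DC sort was 0.41 for complex I, 0.56 for II, 0.93 for III, 0.09 for IV and 0.41 for V, beside 0.28 over all genes. The leading genes differed by −0.31 ± 0.74 (Ndufa2), 0.64 ± 0.62 (Sdhb), 1.08 ± 0.74 (Uqcrc1), 0.43 ± 0.43 (Cox4i1) and 0.85 ± 0.42 (Atp5b). Without D18 replicate 2 of the DC sort the median of the members went from 0.42 to −0.07. For the CD4 against the DC sort, complexes I to V had medians of 0.10, 0.32, 0.39, −0.23 and −0.08, and all members 0.01 (21 of 41 positive, beside 59.6% of all genes), which became −0.28 without that library and 0.12 without the libraries labelled CD4 anti-PD-1 replicates 1 and 2. The leading genes differed by −1.10 ± 0.74 (Ndufa2), 0.47 ± 0.62 (Sdhb), 0.34 ± 0.74 (Uqcrc1), 0.01 ± 0.44 (Cox4i1) and 0.29 ± 0.42 (Atp5b).

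Between the T cell sorts, 36 of 43 members were higher in the CD8 sort, with a median of 0.34 beside 0.08 over all genes, of which 55.9% were higher. The complexes lay close together, with medians of 0.36, 0.17, 0.40, 0.27 and 0.35 from I to V. Ndufa2 differed by 0.78 ± 0.74, Sdhb by 0.17 ± 0.62, Uqcrc1 by 0.74 ± 0.74, Cox4i1 by 0.42 ± 0.44 and Atp5b by 0.56 ± 0.42, and the smallest adjusted p of a member was 0.991. The libraries labelled CD4 anti-PD-1 replicates 1 and 2 had 0 and 1 reads of Cd3e, and CD4-sort D18 replicate 3 had 83 of Cd8a. Without those anti-PD-1 libraries the median was 0.12 and 28 of 44 members were positive. It was 0.065 (31 of 47) without CD4-sort D18 replicate 2, 0.099 (27 of 36) without CD8-sort D18 replicate 1, 0.082 (24 of 43) with limma-voom and 0.038 (24 of 43) in the anti-PD-1 libraries alone. Transcript length tracked the differences from the DC sort, with rank correlations of 0.50 (CD8) and 0.63 (CD4) over the members that became 0.01 and 0.16 without the 6 libraries numbered 2, whereas between the T cell sorts it was −0.28 and −0.27.

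Other genes of the pathway mostly had too few reads to test. None of 47 assembly factors and none of 15 regulators of mitochondrial biogenesis reached a mean of 10 normalised reads in any sort, with 1980 and 534 reads in all. Of 18 citric acid cycle genes 10 were tested in the CD8 sort, 4 positive and 6 negative with D18, and none passed limma's adjusted p. Fh1, fumarate hydratase, which acts next after complex II in the cycle, changed by −1.46 ± 0.56 (limma adjusted p = 0.564) and Idh3a by 1.46 ± 0.84. Of 26 genes of import and membrane structure 12 were tested there, 5 positive and 7 negative, with Phb2, a scaffold protein of the inner membrane, at −1.54 ± 0.49 (limma adjusted p = 0.534) and the chaperonin partner Hspe1 at 1.15 ± 0.72. Of 10 electron carriers outside the rule 4 were tested there, 2 positive and 2 negative, and most of their 4077 reads were the 3154 of Ucp2, an uncoupling protein of the inner membrane that carries no electrons. Cycs, cytochrome c, which links complexes III and IV, changed by 1.06 ± 0.64, and Etfa, which feeds electrons to ubiquinone, by −0.15 ± 0.59.

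The subunits encoded by mitochondrial DNA are given beside the members, with no test of the difference. In the CD8 sort 10 of 13 were tested, none passed, and their median change was −0.94 with 7 negative, beside 0.38 for the nuclear members. The smallest p values were those of mt-Co1, the catalytic subunit of complex IV, at −1.73 ± 0.60 and of mt-Nd5 of complex I at −1.85 ± 0.64 (limma adjusted p = 0.564 for both). In the CD4 sort the median was −2.44 and mt-Cytb of complex III changed by −4.02 ± 1.32 (limma adjusted p = 0.453). In the DC sort it was 0.07, with mt-Co3 at 4.11 ± 1.31 and mt-Co2 at 3.74 ± 1.26 (limma adjusted p = 0.551 for both), which lack reads in the anti-PD-1 libraries numbered 1 and 2.

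What the members share in their promoters was read from RefSeq (GRCm38.p6) windows of 250 bases before to 50 after the start, available for 67 members and 17492 coding genes, searched on both strands. The NRF1 motif (GCGCA, any base, GCGC), named for a factor known to drive respiratory genes, was found in 17 members (25.4%) against 7.17% of all genes, and the ETS motif CCGGAAG in 16 (23.9%) against 12.9%. The YY1 motif AAGATGGC was in 9 members (13.4%), 7 of complex I and 2 of complex V, against 3.57% of genes. At least 1 of the 3 was in 36 members (53.7%) and in 21.0% of genes. A match describes the letters of a window only.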

How the data were processed

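RNA of 3 sorts was measured in 18 Smart-Seq2 libraries, which keep no strand. Per the submitters' processing notes, the authors used STAR 2.4.0, HTSeq 0.6.1, DESeq2 (no version stated) and mm10. The deposited tables hold log2 values made by the authors, 1 table per sort, and the values behave as a variance-stabilising transform of reads over size factors. Undoing it gave whole reads for 100% of values within 0.001, from 11170 to 266392 per library. Symbols were matched for 46488 of 46983 IDs (98.9%) with GENCODE M21, and lengths are those of 1 principal transcript per gene.

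The test of each change was that of limma 3.58.1 (R 4.3.3, trend and robust) on log2(normalised reads + 1), for genes averaging 10 or more normalised reads, with the Benjamini-Hochberg adjusted p held against 0.05 over all genes. Every adjusted p is limma's. Treatment was fitted within a sort, and sorts and interactions in 1 fit of 18 libraries with joint median-ratio size factors over 705 genes. A fold on this scale understates the change of low genes. The fits were tested on simulated data. Members named are the 4 with the smallest p per treatment comparison and the gene of each complex with the highest mean of normalised reads, and others are said to be named later. The members, the gene lists and the tests were chosen with earlier results of these data known. Libraries of the same number correlated in their deviations from the group means at 0.36, 0.51 and 0.56 in the CD8 sort. In the CD4 sort they did so at −0.14, 0.15 and −0.20 and in the DC sort at 0.03, −0.09 and 0.14. The main fits paired no libraries in any sort, and the replicate block was run as an alternative. Alternatives were other scalings, filters and pseudocounts, limma-voom, a replicate block, a term for the mt-Co2 split and libraries left out. Added after the data were seen were the omission of libraries numbered 2 and the deposited values as they stand. Figures were drawn with matplotlib 3.10.9, and tables made with pandas 2.3.3 and scipy 1.17.1 under Python 3.11.15. The values of 1 member are not reported here by name.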

Additional observations from a re-analysis of the deposited data

How the results depend on the processing

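No member passed in any comparison under any alternative that was run, and 50 recomputed changes of single members had the other sign. Of 130 recomputed medians over all members 27 changed sign, and of 646 over a complex 108, so the sign of a median is not fixed. The causes were not tested. The median change of the members in the CD8 sort was −0.32 with a mean of at least 100 reads required, which left 1 member. That filter left no member elsewhere and gave no value. Limma with the replicate block cannot change the medians for D18, since each arm holds 1 library of each number. They stayed at 0.38, 0.09 and 0.00 in the CD8, CD4 and DC sorts. The block called 20 genes in the CD8 sort, none of them a member. In that sort every library correlated best with the one of its own number, which did not hold in the CD4 and DC sorts. Between sorts, libraries with the same arm and number correlated at −0.40 to 0.60, and all 3 pairs passed 0.1 for the CD8 and CD4 sorts with D18 and for the CD4 and DC sorts with anti-PD-1. Counts over all genes, none of them members, went from 0 to 22 and 29 for D18 in the CD8 and CD4 sorts with no filter, to 35 for D18 in the CD4 sort, 125 between the CD8 and DC sorts, 27 between the CD8 and CD4 sorts and 4 between the CD4 and DC sorts without the libraries numbered 3, to 17 for D18 in the DC sort without those numbered 2, and to 18 between the CD8 and DC sorts with a pseudocount of 10. With 1 library left out they reached 3 for D18 in the CD8 sort, 20 for D18 in the CD4 sort and 55 between the CD8 and DC sorts, and in the other alternatives they were at most 2. Depth limits every value: many members had under 10 reads in a library.

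For D18, the term for the mt-Co2 split gave Uqcrc1 0.026 in the CD8 sort. In the DC sort Cox4i1 was 0.22 with quantile normalisation and 0.21 without the libraries numbered 2, where Ndufa2 was −0.11, and Sdhb was 0.037 with limma-voom. For the CD8 against the DC sort, Sdhb was −0.17 with limma-voom and −0.45 without the libraries numbered 2, where Ndufa2 was 0.21, and Ndufa2 was 0.090 in the anti-PD-1 libraries alone. For the CD4 against the DC sort, Sdhb and Cox4i1 were −0.041 and −0.11 with quantile normalisation, Sdhb, Cox4i1 and Atp5b were −0.30, −0.24 and −0.016 with limma-voom and −0.44, −0.27 and −0.17 without the libraries numbered 2, and Sdhb, Uqcrc1, Cox4i1 and Atp5b were −0.35, −1.38, −0.14 and −0.58 in the anti-PD-1 libraries alone. Cox4i1 was also −0.014 with a pseudocount of 10, −0.11 in the 12 libraries with mt-Co2 reads and −0.072 without the libraries labelled CD4 anti-PD-1 replicates 1 and 2. For the CD8 against the CD4 sort, Sdhb and Uqcrc1 were −0.0087 and −0.12 without the libraries numbered 2, −0.19 and −0.20 in the D18 libraries alone and −0.040 and −0.18 in the 12 libraries.

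With 1 library left out at a time, the D18 change of Ndufa2 ran from −0.91 to 0.64 in the CD8 sort, from −1.38 to 0.72 in the CD4 sort (in the 2 omissions that left it tested) and from −0.21 to 0.91 in the DC sort, where Sdhb ran from −2.19 to 0.22 and Cox4i1 from −0.62 to 0.72. The CD8 against DC difference ran from −0.60 to 0.11 for Ndufa2 and from −0.15 to 1.05 for Sdhb. The CD4 against DC difference ran from −0.32 to 0.88 for Sdhb, −0.29 to 1.07 for Uqcrc1, −0.27 to 0.25 for Cox4i1 and −0.13 to 0.55 for Atp5b. The median over members for D18 ran from −0.0045 to 0.93 in the CD8 sort, from −0.25 to 0.68 in the CD4 sort and from −0.62 to 0.75 in the DC sort.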
